A study of Mus musculus with 64 samples.

Results

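The tryptophan and kynurenine enzymes described here are 8 genes, Ido1, Ido2, Kynu, Kmo, Afmid, Il4i1, Haao and Wars. They were taken by name, not by their values, from the 55487 genes counted in 64 libraries of murine bone marrow-derived macrophages (BMMs). Of the 8 genes, 7 held enough counts to be tested and Ido1 did not. Heat-killed bacteria, Salmonella enterica of serovar Enteritidis and here called hk S.E., raised Il4i1, Ido2 and Wars in both genotypes at both time points. Kmo rose at 3 h of activation and fell at 20 h. Haao fell at 20 h to at most 0.32 CPM (counts relative to library size, scaled by trimmed means) in any library activated after DMSO. Ido1 stayed at or below 11 counts in every library.

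Most tryptophan that is not built into protein is degraded through the kynurenine pathway. The dioxygenases IDO1 and IDO2 open the indole ring of tryptophan, and the formamidase AFMID releases kynurenine from the product. Kynurenine is hydroxylated by the monooxygenase KMO or cleaved by the kynureninase KYNU, and the dioxygenase HAAO opens the ring of 3-hydroxyanthranilic acid on the way to quinolinic acid and NAD. IL4I1 is a secreted amino acid oxidase that turns aromatic amino acids, tryptophan among them, into keto acids. WARS is the cytosolic synthetase that loads tryptophan onto its tRNA and is known as an interferon-inducible gene. In myeloid cells Ido1 is best known as an interferon-gamma target. Kynurenine and indole derivatives are ligands of the aryl hydrocarbon receptor (AhR), the transcription factor that this study deleted.

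BMMs were grown from bone marrow of mice aged 8 to 12 weeks, in medium rich in macrophage colony-stimulating factor from L929 fibroblasts. The Ahr+/+ donors were female C57BL/6JRj mice. The Ahr-/- donors carried a germline deletion of Ahr, came from a C57BL/6 line and had been crossed back to C57BL/6JRj, so that sequence around Ahr can still come from the original line. The study used 4 mice of each genotype. Every culture first received 1 µM benzo[a]pyrene (BaP, a high-affinity AhR ligand), 10 µM indole-3-carbinol (I3C, a low-affinity ligand) or 0.01% DMSO as the solvent control for 6 h. Activation followed, with 10000000 hk S.E. in each ml for 3 h or 20 h, and unactivated BMMs of both genotypes received DMSO only. This gives 16 groups of 4 libraries.

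Libraries held 12152496 to 50644601 counts on genes, apart from 1 unactivated Ahr+/+ library at 20 h (replicate 4) with 233047331. All 6 macrophage markers were well covered, with a summed level of 16236 to 32073 CPM. Summed markers of B, T and NK cells, mast cells and basophils, and erythroid cells stayed below 1 CPM. The highest sums were 1.11 CPM for eosinophils, 5.47 CPM for neutrophils and 7.82 CPM for fibroblasts. The 7 dendritic cell markers reached 39.9 CPM, led by Ccr7. The Ahr-/- libraries fell into 2 sets. In 7 of 8 Ahr-/- groups, and in 0 of 8 Ahr+/+ groups, replicates 1 and 2 and replicates 3 and 4 were each closer to one another than to the other pair. In activated Ahr-/- BMMs at 20 h after DMSO, a chi-square of the counts per degree of freedom was 15.2 and 19.4 within these pairs and 118 to 141 across them. The exception was unactivated Ahr-/- BMMs at 3 h. What set the pairs apart is not in the labels. Calls that were lost with 1 pair alone are given beside the result. Counts on Ahr were not lower in Ahr-/- BMMs, with 24.8 ± 2.87 CPM against 13.0 ± 1.29 CPM in activated Ahr+/+ BMMs at 20 h. Counts over a whole gene do not isolate the deleted part, so they do not check the genotype. Ahrr, the AhR repressor and a canonical AhR target, rose with BaP in activated Ahr+/+ BMMs by 3.36 at 3 h and 1.73 at 20 h on the log2 scale. With BaP, mean Ahrr was at 0.184 CPM at 3 h and 0.911 CPM at 20 h in Ahr-/- BMMs, where DMSO gave 0.235 and 0.738 CPM.

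On GRCm38, Ido1 (ENSMUSG00000031551.12, chr8:24584136-24597009) and Ido2 (ENSMUSG00000031549.16, chr8:24531892-24576333) are neighbours on the minus strand, with 7802 bases between them. Kmo (ENSMUSG00000039783.15) lies at chr1:175620381-175662116, Kynu (ENSMUSG00000026866.16) at chr2:43555329-43682715, Il4i1 (ENSMUSG00000074141.13) at chr7:44816387-44840809 and Afmid (ENSMUSG00000017718.15) at chr11:117825924-117839908, all on the plus strand. Wars (ENSMUSG00000021266.16, chr12:108860030-108894174) and Haao (ENSMUSG00000000673.9, chr17:83831156-83847963) lie on the minus strand. Wars shares chromosome 12 with Ahr at a distance of 73324992 bases. Of the exon bases of Afmid, 44.2% overlap the same-strand gene Gm20708, so read pairs there were dropped as ambiguous and its counts are a lower limit. Of those of Il4i1, 83.9% overlap Tbc1d17 on the opposite strand and 2.38% overlap Nup62 on the same strand. The counting used strand.

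RefSeq (GRCm38.p6) gives a start site for Kmo, Il4i1, Afmid and Haao. The 250 bases before that start are printed, 5′ to 3′ on the strand of the gene, for Il4i1, which rose with hk S.E. at both times, Kmo, which turned from a rise to a fall, and Haao, whose called changes with hk S.E. were all falls. The windows are chr7:44836038-44836287 (plus strand) for Il4i1, chr1:175631943-175632192 (plus strand) for Kmo and chr17:83846791-83847040 (minus strand) for Haao. All lie within the annotated gene. Capitals mark GCGTG, the core of the AhR response element.
Il4i1: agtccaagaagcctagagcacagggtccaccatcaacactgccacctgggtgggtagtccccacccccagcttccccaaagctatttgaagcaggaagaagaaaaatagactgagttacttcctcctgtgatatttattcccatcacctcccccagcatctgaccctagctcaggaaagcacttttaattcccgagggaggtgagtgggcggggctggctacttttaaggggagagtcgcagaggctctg
Kmo: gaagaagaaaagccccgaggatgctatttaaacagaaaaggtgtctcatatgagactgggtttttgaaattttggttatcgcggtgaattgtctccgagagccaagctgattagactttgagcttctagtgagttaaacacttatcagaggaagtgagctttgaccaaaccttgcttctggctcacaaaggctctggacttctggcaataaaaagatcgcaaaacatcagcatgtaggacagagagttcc
Haao: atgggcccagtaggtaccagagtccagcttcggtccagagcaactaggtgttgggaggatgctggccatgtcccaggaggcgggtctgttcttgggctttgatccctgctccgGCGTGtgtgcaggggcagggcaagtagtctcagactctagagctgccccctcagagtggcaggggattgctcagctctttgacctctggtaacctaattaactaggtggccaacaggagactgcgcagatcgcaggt

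GCGTG stands once in the Haao window, 132 bases before the start, and in none of the windows of Kmo, Il4i1 and Afmid. Searched on both strands, it occurs in 28.2% of 32851 mouse windows of the same length. Other letters searched were GGGTGCAT for an AhR site shared with RelB (in 0.463% of windows), TTCNNNGAA for STAT factors (7.02%), the GAAA pair of interferon response factors (one GAAA after another with any 2 bases between, 2.98%) and the NF-κB site of GGGA and TTTCC with any base between (0.356%). None of these is in the 4 windows. A match is a run of letters and not a measured binding site. Ido1, Ido2, Kynu and Wars had no entry in the set of start sites used and were not searched. The study screened a longer stretch before the start of each gene and listed an AhR response element for Ido2.

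No enzyme was at 0 in all 4 libraries of any group. Ido1 had counts in 43 of 64 libraries, Ido2 in 59, Kmo in 60 and Haao in 61, and the other 4 genes in every library. On the scale of CPM per kilobase of exon, group means reached 57.9 for Wars, 46.2 for Il4i1, 1.13 for Ido2, 0.615 for Afmid, 0.562 for Haao, 0.398 for Kmo, 0.299 for Kynu and 0.187 for Ido1. With the longest transcript as the length, Il4i1 reached 82.8 and Wars 69.4, so the order of these 2 depends on the length used, as does that of Kynu (0.662) and Kmo (0.512). Wars and Il4i1 were thus the abundant transcripts, and the enzymes of the kynurenine route itself were low. The plot of levels over the 16 groups shows each library.

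**Figure D1:**
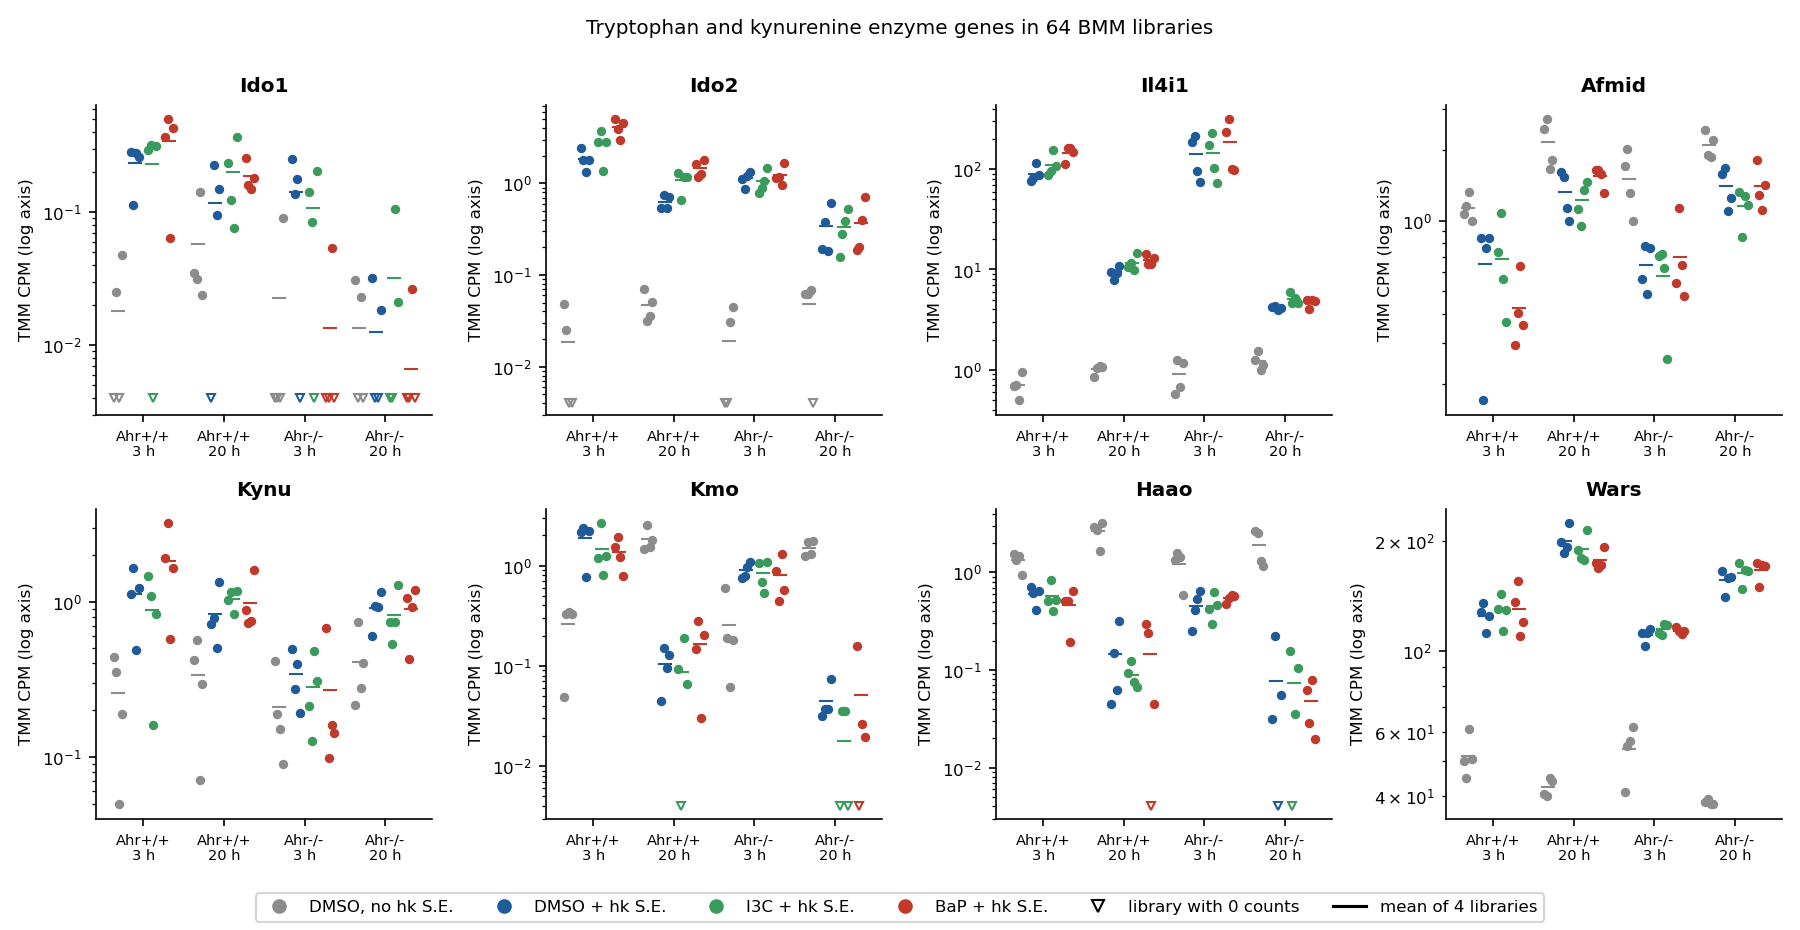
Level of each enzyme in CPM (log axis) in the 16 groups, with 1 point per library, bars for the mean of 4 libraries and open triangles for libraries at 0 counts. Il4i1 spans group means from 0.707 to 188 CPM, Wars from 38.5 to 199.7 CPM, and Ido1 stays below 1 CPM in every library.

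Across the 16 groups, the order of levels differed between the enzymes. Ido1 and Ido2 were highest in BaP-exposed activated Ahr+/+ BMMs at 3 h, with group means of 0.341 and 4.12 CPM. Kynu was highest in the same group (1.84 CPM), and Kmo in activated Ahr+/+ BMMs at 3 h after DMSO (1.88 CPM). Afmid and Haao were highest in unactivated Ahr+/+ BMMs at 20 h, with 2.18 and 2.63 CPM. Il4i1 was highest in BaP-exposed activated Ahr-/- BMMs at 3 h (188 CPM), and Wars in activated Ahr+/+ BMMs at 20 h after DMSO (199.7 CPM). With groups ranked by their means, each neighbouring pair of the 15 overlapped for Ido1 and Kynu. For Kmo, Afmid and Haao 14 pairs overlapped, for Ido2 and Wars 13, and for Il4i1 12.

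The response to hk S.E. was measured against unactivated BMMs of the same genotype and time, both after DMSO, in edgeR with an adjusted p below 0.01 as the call. Of 28 values for the 7 tested enzymes, 23 were called. In Ahr+/+ BMMs at 3 h, 5 enzymes rose and none fell, where 56.6% of all tested genes were called (24.2% higher, 32.3% lower). In Ahr-/- BMMs at 3 h, 4 rose and 2 fell (57.3% called, 25.5% higher, 31.8% lower). At 20 h, 4 rose and 3 fell in Ahr+/+ BMMs (58.6% called, 29.9% higher, 28.7% lower), and 3 rose and 2 fell in Ahr-/- BMMs (54.3% called, 28.3% higher, 26.0% lower). Unactivated and activated libraries did not overlap for all 7 enzymes in Ahr+/+ and 5 of 7 in Ahr-/- BMMs at 3 h, and for 6 of 7 in each genotype at 20 h. Among all genes, 62.8% and 55.2% did not overlap at 3 h (Ahr+/+, Ahr-/-), and 65.9% and 51.6% at 20 h.

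The median log2 fold change of the 7 enzymes was 2.06 and 1.04 at 3 h in Ahr+/+ and Ahr-/- BMMs, and 1.36 and 1.27 at 20 h. The medians of all tested genes were -0.10, -0.08, -0.00073 and 0.02 in the same order. Scaling libraries by total counts alone moved those medians to -0.78, -0.75, -0.37 and -0.28, and the share of called genes that were higher from 42.9%, 44.4%, 51.0% and 52.1% to 17.4%, 17.8%, 29.4% and 31.5%. Enzymes called higher and lower were then 4 and 2, 3 and 2, 3 and 3, and 3 and 3. No called value was counted as changed in direction under that scaling, by the rule given with the alternatives below. The plot of responses gives all 28 values with their intervals.

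**Figure D2:**
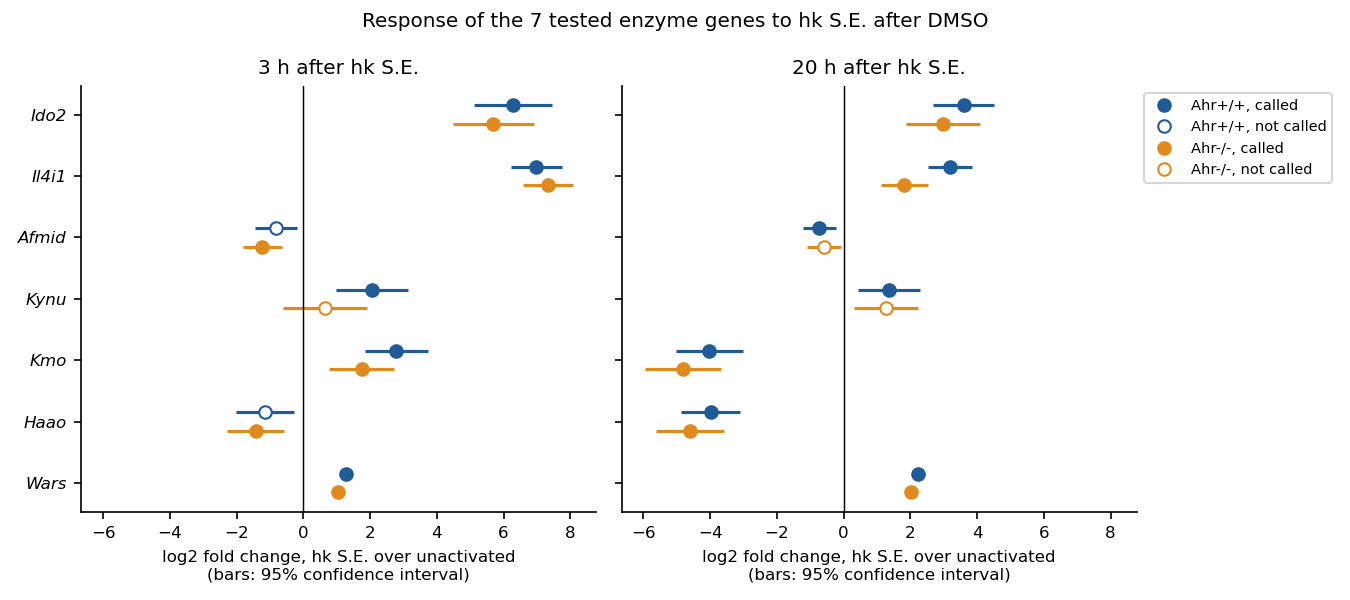
Log2 fold change of the 7 tested enzymes with hk S.E. against unactivated BMMs, with 95% confidence intervals, for both genotypes at 3 h and 20 h. Filled points were called at an adjusted p below 0.01. Il4i1 and Ido2 lie above 0 throughout, Haao and Afmid below, and Kmo lies above 0 at 3 h and below at 20 h.

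Markers of other cell types moved with hk S.E. too. Summed dendritic cell markers went from 0.854 to 1.38 CPM unactivated to 1.88 to 4.50 CPM activated at 3 h and from 0.848 to 1.68 CPM to 20.5 to 39.9 CPM at 20 h in Ahr+/+ BMMs. In Ahr-/- BMMs they went from 0.253 to 0.548 CPM to 1.5 to 2.01 CPM and from 0.461 to 0.649 CPM to 3.90 to 8.65 CPM. Tested were Ccr7, Flt3 and Zbtb46, and Dpp4 did not pass the filter. Of these 3, 2 were called higher in each genotype at 3 h. At 20 h all 3, Flt3 and Zbtb46 among them, were called higher in Ahr+/+ BMMs (median log2 fold change 2.44). In Ahr-/- BMMs 1 of the 3 was called higher at 20 h (median 3.09). Most of the sum was Ccr7, a chemokine receptor that activated myeloid cells also express, at 26.0 ± 8.36 and 6.51 ± 2.06 CPM at 20 h (Ahr+/+, Ahr-/-), while Xcr1, Clec9a and Siglech had group means of at most 0.133 CPM in unactivated and activated BMMs after DMSO.

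Of 4 neutrophil markers, Camp was tested and was called higher in all 4 comparisons (3.28, 2.58, 2.32 and 2.14 for Ahr+/+ and Ahr-/- at 3 h, then at 20 h). Their sum was 0.0943 to 1.3 CPM without and 1.03 to 5.26 CPM with hk S.E., and Ly6g was at 0 in all 8 activated DMSO libraries at 20 h. At 20 h, 4 of 6 macrophage markers were lower and 1 higher in each genotype, and the sum went from 24556 to 27739 CPM to 16521 to 20489 CPM in Ahr+/+ and from 27140 to 31982 CPM to 18290 to 29996 CPM in Ahr-/- BMMs. At 3 h, 2 were lower and 1 higher in each. The part of these markers in the responses of the enzymes was not tested. Fewer cells of a type and less RNA per cell cannot be told apart in bulk RNA.

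Ido1, the dioxygenase of inducible tryptophan breakdown, was near the limit of detection. In unactivated Ahr+/+ BMMs at 3 h the 4 libraries were at 0, 0.0251, 0 and 0.0474 CPM, 2 counts in all. With hk S.E. they were at 0.281, 0.113, 0.277 and 0.259 CPM, 14 counts in all, and the groups did not overlap. The ratio was 11.5, with a 95% counting interval of 2.65 to 104.5, and the 2-sided exact permutation p was 0.0286 (adjusted 0.114), the smallest p that 4 against 4 libraries can give. The Ahr-/- libraries at 3 h held 2 counts unactivated and 11 activated (exact permutation p = 0.143). The other 18 comparisons of Ido1 had an exact permutation p of 0.0571 or more. In edgeR without a filter on low counts, the rise in Ahr+/+ BMMs at 3 h was 3.29 on the log2 scale (adjusted p = 0.00573).

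At 20 h after hk S.E., Ido1 had 16 counts in the Ahr+/+ libraries and 2 in the Ahr-/- libraries. Their ratio was 0.114, with a counting interval of 0.0127 to 0.486, and the exact permutation p was 0.143. With BaP at 3 h, 4 Ahr+/+ libraries held 17 counts and 4 Ahr-/- libraries held 1. These counts are too few to order the groups.

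Ido2, the paralogous indoleamine dioxygenase, was all but silent without hk S.E. and appeared with it. In unactivated BMMs at 3 h the libraries were at 0.0487, 0.0251, 0 and 0 CPM in Ahr+/+ and 0, 0, 0.0304 and 0.0452 CPM in Ahr-/- BMMs. With hk S.E. they were at 2.46, 1.81, 1.32 and 1.81 CPM in Ahr+/+ and 1.12, 0.869, 1.19 and 1.34 CPM in Ahr-/- BMMs. Every activated library lay above every unactivated library. Because each unactivated group held 2 counts in all, the change is given as the ratio of summed counts, 93.8 (114 against 2 counts, counting interval 25.4 to 784) in Ahr+/+ and 63.1 (85 against 2 counts, 16.9 to 529) in Ahr-/- BMMs. The calls had adjusted p-values of 4.16e-14 and 3.37e-12.

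At 20 h, Ido2 was lower in activated BMMs than at 3 h, with 0.539, 0.747, 0.534 and 0.703 CPM in Ahr+/+ and 0.19, 0.375, 0.184 and 0.607 CPM in Ahr-/- BMMs. It was still above the unactivated level by 3.60 ± 0.45 (log2 fold change ± SE, adjusted p = 6.45e-10) and 2.97 ± 0.55 (adjusted p = 4.49e-06). From 3 h to 20 h of activation it fell by 1.53 in Ahr+/+ and by 1.63 in Ahr-/- BMMs (adjusted p = 7.77e-05 and 9.81e-05). After DMSO, all activated Ahr-/- libraries of 1 time point carry identifiers of 1 series and those of the other time point another, and with the series in the fit the value was -1.47 (adjusted p = 0.292). Time and series cannot be told apart there. The rise at 20 h in Ahr-/- BMMs was not called with replicates 1 and 2 alone (2.08, adjusted p = 0.0131).

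Il4i1, the amino acid oxidase, rose steeply at 3 h. In Ahr+/+ BMMs the libraries went from 0.682, 0.703, 0.493 and 0.949 CPM to 76.5, 82.2, 114 and 87 CPM. Ahr-/- BMMs went from 0.57, 1.24, 0.669 and 1.17 CPM to 185, 215, 96.9 and 75.2 CPM. Replicates 1 and 2 of the activated Ahr-/- BMMs were well above replicates 3 and 4, and the same 2 replicates were the highest after I3C (177, 228, 102 and 73.6 CPM) and BaP (234, 319.7, 101 and 98.4 CPM). The log2 fold changes were 6.98 ± 0.38 in Ahr+/+ (adjusted p = 4.61e-23) and 7.33 ± 0.37 in Ahr-/- BMMs (adjusted p = 2e-24). With Ahr-/- replicates 1 and 2 alone the latter was 7.83 and with replicates 3 and 4 alone 6.61.

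By 20 h, Il4i1 had fallen back to 9.34, 7.84, 9.27 and 10.9 CPM in Ahr+/+ and 4.18, 4.35, 3.97 and 4.08 CPM in Ahr-/- BMMs. The Ahr-/- libraries all lay below the Ahr+/+ libraries at that time. Both remained above unactivated BMMs, by 3.19 ± 0.33 and 1.81 ± 0.35 (adjusted p = 1.99e-12 and 1e-05). The response at 20 h was smaller than that at 3 h by a log2 difference of -3.79 ± 0.51 in Ahr+/+ and -5.52 ± 0.52 in Ahr-/- BMMs (adjusted p = 5.36e-09 and 1.49e-13).

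For the change of the hk S.E. response with time, 4 of 7 enzymes were called in each genotype, where 47.8% of all tested genes were called in Ahr+/+ and 44.7% in Ahr-/- BMMs. The 4 were Il4i1, Kmo and Haao with negative and Wars with positive values. Ido2 had values of -2.69 ± 0.93 and -2.72 ± 1.08 (adjusted p = 0.0115 and 0.0293). Blocked by replicate number, the value in Ahr+/+ BMMs was -2.59 (adjusted p = 0.00518). With only replicates 1 and 2 of the Ahr-/- BMMs in the fit, Ido2 was called in both genotypes (-2.71 in Ahr+/+, adjusted p = 0.00268, and -5.80 in Ahr-/-, adjusted p = 0.00612), and Haao in Ahr-/- BMMs was not (-2.31, adjusted p = 0.0437).

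Afmid, the formamidase, was lower with hk S.E. in all 4 comparisons and called in 2. In Ahr+/+ BMMs at 3 h the libraries were at 1.07, 1.15, 1.33 and 0.996 CPM unactivated and 0.844, 0.17, 0.762 and 0.841 CPM activated. Ahr-/- BMMs were at 1.71, 2.03, 1.31 and 0.994 CPM and 0.561, 0.778, 0.485 and 0.767 CPM. All unactivated libraries lay above all activated ones in both genotypes. The fall was called in Ahr-/- BMMs (-1.23 ± 0.29, adjusted p = 0.000234), and the value in Ahr+/+ BMMs was -0.83 ± 0.31 (adjusted p = 0.0183). With Ahr-/- replicates 3 and 4 alone the fall was not called (-0.94, adjusted p = 0.0489).

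At 20 h, Afmid was at 2.48, 2.73, 1.67 and 1.83 CPM unactivated and 1.62, 1.53, 1.13 and 1 CPM activated in Ahr+/+ BMMs, a called fall of 0.73 on the log2 scale (adjusted p = 0.00901). The value in Ahr-/- BMMs was -0.59 ± 0.25 (adjusted p = 0.0349). The call in Ahr+/+ BMMs was lost with the identifier series in the fit (-0.54, adjusted p = 0.0908) and when any of 4 libraries was left out, unactivated replicates 1 and 2 and activated replicates 3 and 4 (-0.66 to -0.60, adjusted p = 0.0281 to 0.049). Afmid rose from 3 h to 20 h of activation by 1.02 ± 0.31 in Ahr+/+ and 1.11 ± 0.29 in Ahr-/- BMMs (adjusted p = 0.00288 and 0.000767), the latter not called with the identifier series in the fit (0.93, adjusted p = 0.0323) or with replicates 3 and 4 alone (0.96, adjusted p = 0.0364).

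Kynu, the kynureninase, rose with hk S.E. in Ahr+/+ BMMs. At 3 h the Ahr+/+ libraries were at 0.438, 0.351, 0.0493 and 0.19 CPM unactivated and 1.12, 1.64, 0.485 and 1.23 CPM activated, and replicate 3 was the lowest in both. The rise was 2.06 ± 0.54 (adjusted p = 0.000769) and was not called under scaling by total counts (1.38, adjusted p = 0.0178). The Ahr-/- libraries were at 0.412, 0.188, 0.152 and 0.0904 CPM and 0.498, 0.275, 0.397 and 0.192 CPM and overlapped, with a log2 fold change of 0.64 ± 0.63 (adjusted p = 0.385). The difference between the genotypes in this response was -1.43 ± 0.84 (adjusted p = 0.949) and was not called.

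At 20 h, Kynu was at 0.719, 0.784, 0.503 and 1.34 CPM in activated Ahr+/+ and 0.602, 0.937, 0.92 and 1.16 CPM in activated Ahr-/- BMMs. Its change against unactivated BMMs was 1.36 ± 0.47 (adjusted p = 0.00938) in Ahr+/+ and 1.27 ± 0.48 (adjusted p = 0.0179) in Ahr-/- BMMs. The value in Ahr+/+ BMMs lies at the threshold and was lost in 6 of 8 fits that left out 1 library, all but those without unactivated replicate 2 or activated replicate 3 (1.00 to 1.46, adjusted p = 0.0108 to 0.0884), and with only replicates 1 and 2 of the Ahr-/- BMMs in the fit (1.36, adjusted p = 0.0118). The Ahr+/+ value was also not called with DESeq2 (adjusted p = 0.0143) or with limma on the deposited log2 values (adjusted p = 0.0362). The same holds in edgeR with other size factors, no filter and total-count scaling (adjusted p = 0.0102, 0.013 and 0.0547). With the replicate block, the value in Ahr-/- BMMs was called (1.32, adjusted p = 0.00262). From 3 h to 20 h of activation, Kynu in Ahr-/- BMMs changed by 1.41 ± 0.53 (adjusted p = 0.0166), called with the block (1.38, adjusted p = 0.00485).

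Kmo, the kynurenine monooxygenase, was the enzyme whose response turned with time. In Ahr+/+ BMMs at 3 h the libraries were at 0.0487, 0.326, 0.345 and 0.332 CPM unactivated and 2.18, 2.38, 0.762 and 2.2 CPM activated. At 20 h they were at 1.46, 2.51, 1.53 and 1.81 CPM unactivated and 0.0449, 0.149, 0.0943 and 0.128 CPM activated. The groups did not overlap at either time, and their order was opposite. The Ahr-/- libraries followed the same course, from 0.602, 0.188, 0.0608 and 0.181 to 0.747, 0.778, 0.97 and 1.09 CPM at 3 h and from 1.24, 1.73, 1.29 and 1.75 to 0.0317, 0.0375, 0.0368 and 0.0736 CPM at 20 h.

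The log2 fold changes of Kmo with hk S.E. were 2.79 ± 0.47 at 3 h and -4.03 ± 0.50 at 20 h in Ahr+/+ BMMs (adjusted p = 8.28e-07 and 5.09e-10). They were 1.75 ± 0.49 and -4.81 ± 0.57 in Ahr-/- BMMs (adjusted p = 0.00145 and 1.19e-10). The difference between the times was -6.81 ± 0.69 in Ahr+/+ and -6.56 ± 0.76 in Ahr-/- BMMs (adjusted p = 1.88e-12 and 1.26e-10). Kmo also rose in unactivated BMMs from 3 h to 20 h, by 2.74 ± 0.46 and 2.49 ± 0.45 (adjusted p = 1.89e-05 and 6.52e-05). The rise at 3 h in Ahr-/- BMMs was not called without 1 unactivated library (replicate 3, 1.39, adjusted p = 0.0134) or under scaling by total counts (1.08, adjusted p = 0.0385). It was not called with replicates 1 and 2 alone either (0.92, adjusted p = 0.229), and neither was the rise with time in unactivated Ahr-/- BMMs (1.84, adjusted p = 0.0271).

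Haao, which acts after Kynu and Kmo, fell. In Ahr+/+ BMMs at 20 h the libraries went from 2.93, 2.7, 1.67 and 3.23 CPM unactivated to 0.0449, 0.149, 0.0629 and 0.32 CPM activated, and in Ahr-/- BMMs from 2.66, 2.54, 1.31 and 1.16 to 0.0317, 0.225, 0 and 0.0552 CPM. Every activated library lay below every unactivated one. The log2 fold changes were -3.99 ± 0.45 and -4.61 ± 0.51 (adjusted p = 1.75e-11 and 1.59e-11).

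At 3 h the change of Haao was smaller, from 1.56, 1.35, 1.48 and 0.949 to 0.703, 0.622, 0.415 and 0.647 CPM in Ahr+/+ and from 1.33, 1.58, 1.43 and 0.587 to 0.249, 0.412, 0.529 and 0.639 CPM in Ahr-/- BMMs. It was called in Ahr-/- BMMs (-1.43 ± 0.43, adjusted p = 0.00311), although the groups overlap there, and the call was lost in 3 fits that left out 1 library (-1.32 to -1.20, adjusted p = 0.0116 to 0.0214, for activated replicates 1 and 2 and unactivated replicate 2). Nor was it called with replicates 3 and 4 alone (-0.85, adjusted p = 0.171). In Ahr+/+ BMMs the value was -1.15 ± 0.43 (adjusted p = 0.0167), called with the replicate block (-1.18, adjusted p = 0.00717). The response at 20 h was below that at 3 h by a log2 difference of -2.84 ± 0.64 and -3.18 ± 0.71 (adjusted p = 0.00014 and 0.00013). The plot of Kmo, Haao and Kynu over time shows the 3 enzymes downstream of kynurenine side by side.

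**Figure D3:**
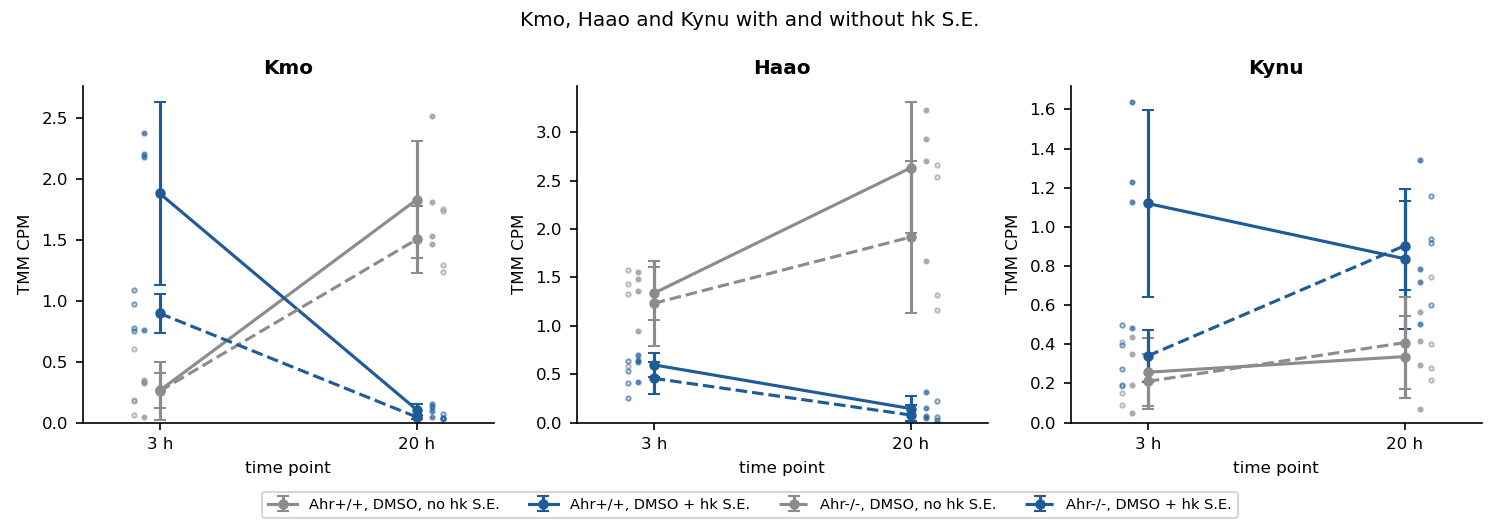
Mean ± SD of 4 libraries in CPM, with single libraries as points, for Kmo, Haao and Kynu at 3 h and 20 h after DMSO, in grey without and in blue with hk S.E., with solid lines and filled points for Ahr+/+ and dashed lines and open points for Ahr-/- BMMs. Kmo rises in unactivated and falls in activated BMMs between the times, and at 20 h activated Kmo and Haao lie near 0, at or below 0.32 CPM.

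Wars, the tryptophanyl-tRNA synthetase, rose in every comparison with hk S.E. In Ahr+/+ BMMs the libraries went from 50.0, 44.8, 61.2 and 50.6 to 128, 135, 111 and 124 CPM at 3 h and from 40.6, 40.2, 44.9 and 44 to 199, 185, 192 and 224 CPM at 20 h. The Ahr-/- libraries went from 41.1, 55.1, 56.8 and 61.9 to 112, 103, 112 and 115 CPM and from 38.6, 39.3, 38 and 38.2 to 165, 140.2, 158 and 159 CPM. No unactivated library reached an activated one. The log2 fold changes were 1.27 ± 0.09 and 2.24 ± 0.10 in Ahr+/+ (adjusted p = 5.85e-18 and 6.3e-28) and 1.04 ± 0.09 and 2.01 ± 0.09 in Ahr-/- BMMs (adjusted p = 9.95e-15 and 5.95e-26).

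Wars was set beside the other 19 cytosolic aminoacyl-tRNA synthetases, which load the other amino acids. At 3 h in Ahr+/+ BMMs, 5 of these rose and 3 fell, with a median of -0.04, and Wars (1.27) ranked 2 of 20 after Rars (1.32). At 3 h in Ahr-/- BMMs, 5 rose and 5 fell, with a median of -0.01, and Wars ranked 3 of 20 after Rars (1.27) and Kars (1.13). At 20 h, 14 rose and 2 fell in Ahr+/+ BMMs (median 1.20), and 17 rose and 2 fell in Ahr-/- BMMs (median 1.32). Aars had the largest rise at 20 h in both (3.09 and 2.88), and Wars ranked 2 and 6 of 20. Wars was thus 1 of 6 synthetases raised at 3 h in each genotype, where 24.2% and 25.5% of all tested genes were higher (Ahr+/+, Ahr-/-). At 20 h Wars was 1 of 15 raised in Ahr+/+ and 1 of 18 in Ahr-/- BMMs, beside 29.9% and 28.3% of all genes. The change of its response with time was 0.96 ± 0.13 in Ahr+/+ and 0.98 ± 0.13 in Ahr-/- BMMs (adjusted p = 6.38e-09 and 5.23e-09). Unactivated Ahr-/- BMMs had less Wars at 20 h than at 3 h (-0.48 ± 0.09, adjusted p = 0.000149), a call lost with the identifier series in the fit (-0.26, adjusted p = 0.129) and with replicates 1 and 2 alone (-0.30, adjusted p = 0.139).

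**Figure D4:**
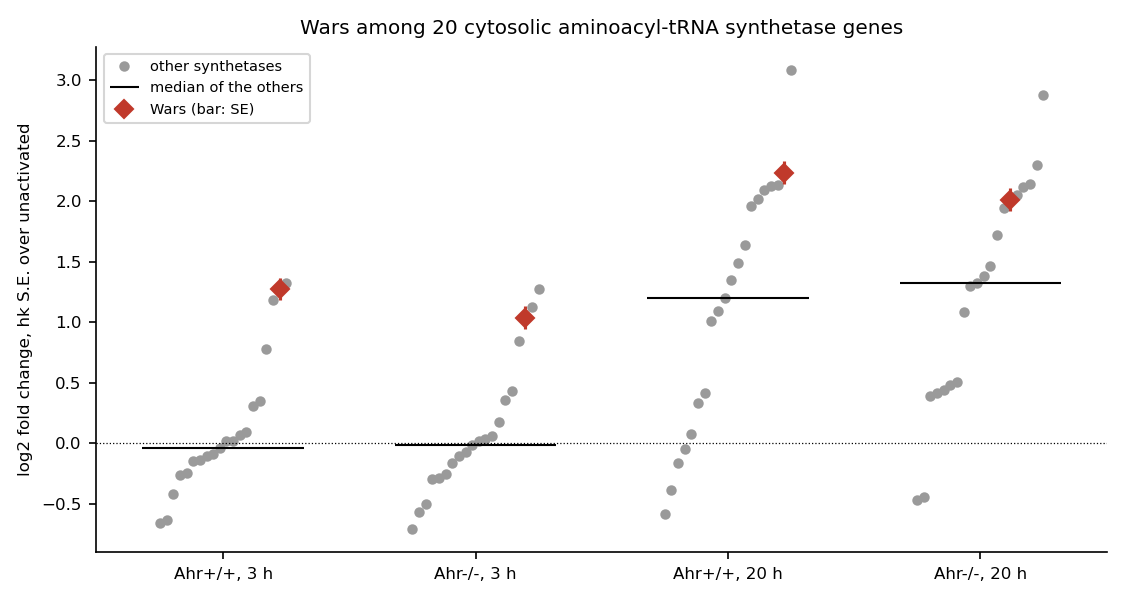
Log2 fold change with hk S.E. of the 20 cytosolic aminoacyl-tRNA synthetases in 4 comparisons, with Wars in red with its SE, the other 19 in grey and a black line for their median. The median of the others lies at -0.04 and -0.01 at 3 h and at 1.20 and 1.32 at 20 h, and Wars lies above it each time.

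For time alone, 15 of 28 values were called. In activated BMMs, 6 of 7 enzymes changed from 3 h to 20 h in each genotype, where 59.5% of all tested genes did so in Ahr+/+ and 56.0% in Ahr-/- BMMs. Afmid and Wars were higher at 20 h, and Il4i1, Kmo, Ido2 and Haao were lower. Il4i1 fell by 3.26 in Ahr+/+ and by 5.11 in Ahr-/- BMMs (adjusted p = 9.59e-15 and 1.29e-20). Kmo fell by 4.07 in both genotypes (adjusted p = 9.65e-10 and 6.26e-08), and Haao fell by 1.85 in Ahr+/+ and fell by 2.59 in Ahr-/- BMMs (adjusted p = 0.00187 and 0.000187). The value of Haao in Ahr-/- BMMs was not called with replicates 1 and 2 alone (-1.47, adjusted p = 0.13). In unactivated BMMs, 1 of 7 enzymes was called in Ahr+/+ and 2 of 7 in Ahr-/- BMMs, beside 6.07% and 6.98% of all genes. The call of Haao in activated Ahr+/+ BMMs was lost without activated replicate 3 at 20 h (-1.59, adjusted p = 0.0104), and that of Afmid without activated replicate 2 at 3 h (0.60, adjusted p = 0.0715) or activated replicates 1 or 2 at 20 h (0.91 and 0.94, adjusted p = 0.0114 and 0.0101). Without hk S.E., Afmid and Haao were not called in edgeR. Their values in Ahr+/+ BMMs were 0.92 and 0.99 (adjusted p = 0.0116 and 0.0603), and the 3 h and 20 h libraries did not overlap. Afmid was called there with DESeq2 (adjusted p = 0.0025) and limma (adjusted p = 0.00671), and Haao with limma (adjusted p = 0.00961). In unactivated Ahr-/- BMMs the values were 0.48 and 0.59, and the libraries overlapped.

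Exposure to an AhR ligand before activation was compared with DMSO in activated BMMs. Of 56 values for the 7 enzymes, edgeR called 0, with 4 at an unadjusted p below 0.05. Of these 4, 2 were with BaP at 3 h (2.68% of all genes), 1 with BaP at 20 h (10.4%) and 1 with I3C at 20 h (5.72%), all in Ahr+/+ BMMs. In Ahr+/+ BMMs, 0.0482% of all tested genes were called with BaP at 3 h and 0.234% at 20 h, and 0.131% and 0.509% with I3C. The shares in Ahr-/- BMMs were 0.0275% and 0.0138% with BaP and 0.0206% and 0.206% with I3C. DESeq2 called 0 of the 56, and limma on the deposited log2 values and edgeR with the replicate block each called 1, which was Ido2 with BaP in Ahr+/+ BMMs. Among all genes, the main fit called 7 with BaP in Ahr+/+ BMMs at 3 h and 34 at 20 h. The study, with its own DESeq2 fit at the same threshold, reported more genes at each time, and far more at 20 h. Why the fits differ was not tested. The 0 calls here therefore do not show that the ligands left the enzymes unchanged.

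Ido2 had the lowest p-values of the 7 enzymes with BaP in Ahr+/+ BMMs. At 3 h the libraries of activated BMMs were at 2.46, 1.81, 1.32 and 1.81 CPM with DMSO and 5.06, 3.94, 2.94 and 4.56 CPM with BaP. At 20 h they were at 0.539, 0.747, 0.534 and 0.703 CPM with DMSO and 1.61, 1.17, 1.25 and 1.81 CPM with BaP. All BaP libraries lay above all DMSO libraries, which holds for 3.91% of all tested genes in either direction at 3 h and 9.05% at 20 h, and replicate by replicate BaP was higher in 4 of 4 at each time. The log2 fold change was 1.16 ± 0.31 at 3 h (adjusted p = 0.404 in edgeR) and 1.21 ± 0.33 at 20 h (adjusted p = 0.06), and neither was called. The study itself called Ido2 higher with BaP in Ahr+/+ BMMs at both times, at an FDR below 0.01. It did so on these samples, so the values here are no independent evidence. In separate RT-qPCR over a range of doses, the study reported Ido2 raised with both ligands. With the replicate block, the value at 20 h was 1.20 ± 0.26 (adjusted p = 0.00254). With only replicates 1 and 2, or only 3 and 4, of the Ahr-/- BMMs in the fit, it was also called (1.20 and 1.21, adjusted p = 0.0087 and 0.0084). On the deposited log2 values, limma gave 0.70 at 3 h (adjusted p = 0.00191).

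With I3C, Ido2 in Ahr+/+ BMMs was at 2.8, 3.69, 1.36 and 2.83 CPM at 3 h and 1.3, 0.661, 1.17 and 1.17 CPM at 20 h. The libraries overlapped those with DMSO, and the log2 fold changes were 0.54 ± 0.32 and 0.76 ± 0.34 (adjusted p = 1 and 0.699). In Ahr-/- BMMs, Ido2 was at 1.15, 1.18, 0.968 and 1.66 CPM with BaP and 1.12, 0.869, 1.19 and 1.34 CPM with DMSO at 3 h. At 20 h it was at 0.188, 0.2, 0.398 and 0.709 and 0.19, 0.375, 0.184 and 0.607 CPM. The values overlapped at both times, with log2 fold changes of 0.15 ± 0.34 and 0.11 ± 0.37. The difference of the BaP effect between the genotypes was 1.01 ± 0.46 at 3 h and 1.09 ± 0.50 at 20 h (adjusted p = 1 and 0.984), and was not called.

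Il4i1 in activated Ahr+/+ BMMs at 3 h was at 76.5, 82.2, 114 and 87 CPM with DMSO and 114, 162, 162 and 149 CPM with BaP. BaP was higher in 4 of 4 replicates, and the groups overlap. The log2 fold change was 0.70 ± 0.26 (adjusted p = 1). In Ahr-/- BMMs BaP was also higher in 4 of 4 replicates, with 0.40 ± 0.26 (adjusted p = 0.789). With I3C at 3 h, Il4i1 was higher in 4 of 4 replicates in Ahr+/+ (0.30 ± 0.26) and 2 of 4 in Ahr-/- BMMs (0.02 ± 0.26), with an adjusted p of 1 for both.

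At 20 h the Ahr+/+ libraries were at 14.4, 11.3, 11.4 and 13.2 CPM with BaP and 9.34, 7.84, 9.27 and 10.9 CPM with DMSO and did not overlap, with 0.42 ± 0.28 (adjusted p = 0.646). I3C was higher than DMSO in 4 of 4 Ahr+/+ replicates, with 0.31 ± 0.28 (adjusted p = 1), and the groups overlap. In Ahr-/- BMMs the libraries were at 6.02, 4.6, 5.15 and 4.63 CPM with I3C and 4.18, 4.35, 3.97 and 4.08 CPM with DMSO. These did not overlap either, with 0.29 ± 0.30 (adjusted p = 0.999). Among all tested genes, 3.63% did not overlap in this comparison and 9.05% in that of BaP in Ahr+/+ BMMs at 20 h. BaP was higher in 3 of 4 Ahr-/- replicates, with 0.19 ± 0.30 (adjusted p = 1). None of these values was called, and with only replicates 3 and 4 of the Ahr-/- BMMs in the fit the BaP value in Ahr+/+ BMMs at 3 h was (0.70, adjusted p = 0.00499). The plot of Ido2 and Il4i1 by ligand joins the libraries of each replicate.

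**Figure D5:**
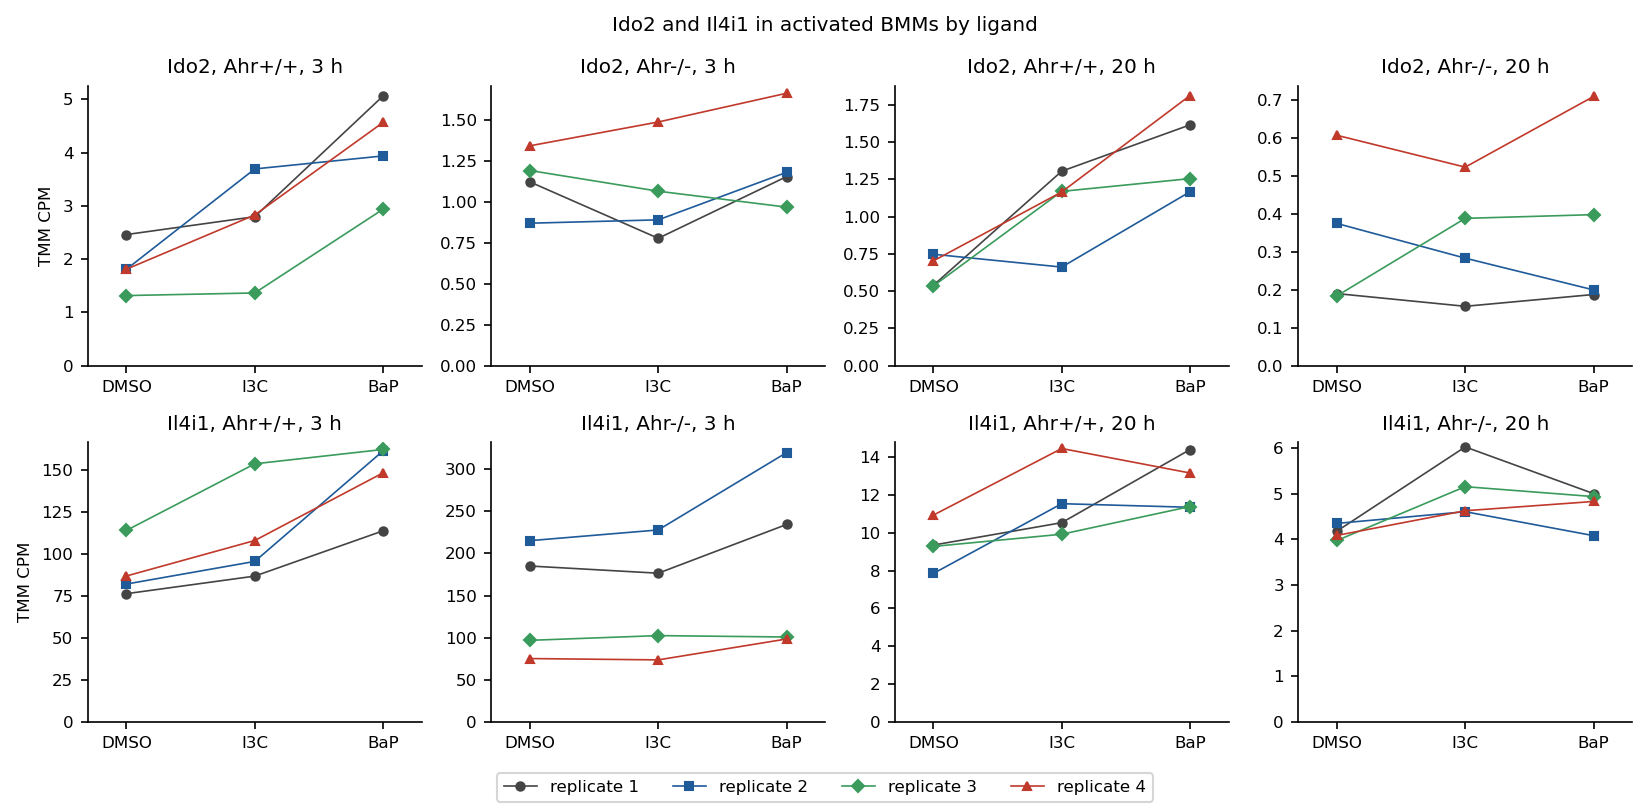
Level in CPM of Ido2 and Il4i1 in activated BMMs after DMSO, I3C and BaP, with 1 line per replicate number, for both genotypes at 3 h and 20 h. Axes start at 0 and differ in scale between panels. In Ahr+/+ BMMs the Ido2 lines end higher with BaP (2.94 to 5.06 CPM at 3 h) than with DMSO (1.32 to 2.46 CPM), and in Ahr-/- BMMs the ranges overlap.

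The other 5 tested enzymes gave no call with ligand. For Wars, log2 fold changes with either ligand lay between -0.18 (BaP, Ahr+/+, 20 h, interval -0.36 to 0.00) and 0.09 (BaP, Ahr-/-, 20 h, interval -0.09 to 0.27). For Kynu with BaP at 3 h the value was 0.65 ± 0.47 in Ahr+/+ BMMs, and for Afmid -0.57 ± 0.39 (adjusted p = 1 for both). For Kmo and Haao at 20 h, where activated BMMs hold few counts, standard errors were 0.60 to 1.12 and the intervals were correspondingly wide.

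BaP and I3C were given at different doses, 1 µM and 10 µM, so their values stand side by side. Of 28 comparisons between them, edgeR called 0, with 2 at an unadjusted p below 0.05, both in Ahr+/+ BMMs at 3 h (4.16% of all genes), while 0.11% and 0.282% of all genes were called in Ahr+/+ BMMs at 3 h and 20 h and 0.0206% and 0.186% in Ahr-/- BMMs. DESeq2 and limma on the deposited log2 values called 0 as well. For Ido2 in Ahr+/+ BMMs, BaP minus I3C was 0.61 ± 0.31 at 3 h (interval 0.00 to 1.23) and 0.45 ± 0.32 at 20 h (interval -0.18 to 1.08), with BaP higher in 4 of 4 replicates at both times. For Kynu at 3 h it was 0.99 ± 0.48 (interval 0.02 to 1.95). The adjusted p was 1 for these 3 values.

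Between the genotypes after DMSO, 2 of 28 values were called, both lower in activated Ahr-/- BMMs at 20 h, where 12.5% of all tested genes were called and 7.39% were lower. Il4i1 was at 9.34, 7.84, 9.27 and 10.9 CPM in Ahr+/+ and 4.18, 4.35, 3.97 and 4.08 CPM in Ahr-/- BMMs, with a log2 difference of -1.18 ± 0.29 (adjusted p = 0.00228). Wars was at 199, 185, 192 and 224 CPM and 165, 140.2, 158 and 159 CPM, with -0.36 ± 0.09 (adjusted p = 0.00252). For both genes the genotypes did not overlap, as for 20.4% of all genes. In this comparison Wars had the lowest value of the 20 synthetases, and of the other 19, 2 were higher, 0 were lower and the median was -0.10.

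All activated Ahr+/+ libraries at 20 h carry identifiers of 1 series and all activated Ahr-/- libraries at 20 h those of another, so genotype and series cannot be told apart there. With the series in the fit, Wars was at -0.08 (adjusted p = 0.738) and Il4i1 at -0.95 (adjusted p = 0.311). Without replicate 4 of the activated Ahr+/+ BMMs neither was called (Wars -0.30, adjusted p = 0.0217, and Il4i1 -1.09, adjusted p = 0.0108), and without replicate 2 of the activated Ahr-/- BMMs Wars was not (-0.31, adjusted p = 0.0199). With Ahr-/- replicates 1 and 2 alone, Il4i1 was called (-1.14, adjusted p = 0.000127) and Wars was not (-0.38, adjusted p = 0.0131), and with replicates 3 and 4 alone both were (-1.22 and -0.33, adjusted p = 2.54e-05 and 0.00924). In the same libraries, the summed dendritic cell markers were 20.5 to 39.9 CPM in Ahr+/+ and 3.90 to 8.65 CPM in Ahr-/- BMMs. Of the 7, Ccr7, Flt3 and Zbtb46 passed the filter and all were lower in Ahr-/- BMMs (-1.99, -2.92 and -2.56), Siglech had no counts in the 4 Ahr+/+ libraries, and Xcr1 and Clec9a were nearly at 0. Of the macrophage markers, Cd68 was lower in Ahr-/- BMMs (-0.69) and the other 5 were not called. The part of these markers in the result was not tested.

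The remaining genotype differences were not called. In activated BMMs at 3 h, Kynu was at 1.12, 1.64, 0.485 and 1.23 CPM in Ahr+/+ and 0.498, 0.275, 0.397 and 0.192 CPM in Ahr-/- BMMs (-1.72 ± 0.55, adjusted p = 0.0463), where 2.83% of all genes were called. Kmo had -1.07 ± 0.42 (adjusted p = 0.126) and Il4i1 0.67 ± 0.26 (adjusted p = 0.125). The Il4i1 value rested on the pair, with a call at 1.15 (adjusted p = 2.14e-05) for Ahr-/- replicates 1 and 2 alone and -0.06 (adjusted p = 0.87) for replicates 3 and 4 alone. Ido2 had -0.71 ± 0.34 at 3 h and -0.81 ± 0.37 at 20 h (adjusted p = 0.228 and 0.112). In unactivated BMMs none of the 7 was called at either time, with 0 at an unadjusted p below 0.05, beside 1.21% and 0.702% of all genes called at 3 h and 20 h and 9.99% and 12.5% at the unadjusted p. DESeq2 and limma called 0 in them too.

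No enzyme was called for a different hk S.E. response between the genotypes in edgeR (0 of 14, with 1 at an unadjusted p below 0.05 at 20 h, as for 21.5% of all genes), where 0.0138% of all genes were called at 3 h and 4.41% at 20 h. DESeq2 and limma also called 0. The lowest p was that of Il4i1 at 20 h, with -1.38 ± 0.49 (adjusted p = 0.0625), which was called when only the 4 groups compared were fitted (-1.40, adjusted p = 0.00161). For a different ligand effect between the genotypes, 0 of 28 were called, with 3 at an unadjusted p below 0.05, 1 for BaP at 3 h (2.56% of all genes) and 2 for BaP at 20 h (4.67%), beside 0.0138% of all genes for BaP at 3 h and 0.0% for the other 3. DESeq2 and limma called 0 of these too.

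Other genes of tryptophan and kynurenine metabolism were followed as lists. Of 16 further enzymes, 6 were tested and 3 had no counts in any library. With hk S.E., 1 rose and 2 fell at 3 h in each genotype, and at 20 h 4 fell in Ahr+/+ and 3 in Ahr-/- BMMs. Kyat3, a kynurenine aminotransferase, was at 1.03 and 0.78 at 3 h (Ahr+/+, Ahr-/-) and at -0.87 and -0.01 at 20 h, where only the Ahr+/+ value was called. Gcdh, a mitochondrial dehydrogenase of tryptophan and lysine breakdown, fell in all 4 comparisons (-0.74, -0.94, -0.96 and -0.50). Kyat1, another aminotransferase, fell at 3 h (-0.84 and -0.90), and Maoa, a monoamine oxidase, at 20 h (-0.61 and -0.49).

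Of 10 genes of NAD synthesis, 6 were tested. At 3 h, 1 rose and 4 fell in each genotype, and at 20 h 1 rose and 1 fell in Ahr+/+ and 2 rose and 1 fell in Ahr-/- BMMs. Nampt, which recycles nicotinamide to NAD, rose by 2.78, 2.64, 2.18 and 2.05 (Ahr+/+ and Ahr-/- at 3 h, then at 20 h). Naprt, which starts from nicotinic acid, fell in all 4 comparisons, to as low as -1.47 and -1.77 at 20 h. Nmrk1 and Nmnat3 fell at 3 h (-1.70 and -1.31, -1.67 and -1.50).

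All 11 genes of tryptophan and kynurenine transport and sensing were tested. At 3 h, 5 rose and 3 fell in Ahr+/+ and 5 rose and 4 fell in Ahr-/- BMMs, and at 20 h 7 rose and 1 fell, and 8 rose and 2 fell. Slc7a11, the cystine and glutamate exchanger, rose by 3.26 and 3.63 at 3 h and by 6.30 and 6.27 at 20 h. Slc7a5, the large neutral amino acid transporter that carries tryptophan, rose by 1.32, 1.63, 3.13 and 3.72. Atf4, the transcription factor of the amino acid response, was raised at 20 h (2.88 and 2.66) and not called at 3 h (0.14 and 0.23). Gpr35, a receptor for kynurenic acid, fell at 3 h (-3.99 and -3.95).

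The interferon response list, 15 of 16 genes tested, rose in full at 3 h in both genotypes (median 5.74 for Ahr+/+ and 5.28 for Ahr-/-). At 20 h, 13 rose and 1 fell in Ahr+/+ (median 5.61) and 11 rose and 2 fell in Ahr-/- BMMs (median 3.96). Between the genotypes in activated BMMs at 20 h, 8 of the 15 were lower in Ahr-/- BMMs and 0 higher (median -0.85, all genes 0.01), in the same libraries in which Il4i1 and Wars were lower. The hk S.E. response itself differed between the genotypes for Mx1 (-2.33), Isg15 (-1.32), Irf1 (-0.66) and Irf2 (-0.46), all smaller in Ahr-/- BMMs, and the identifier series differ there too. Of 6 AhR battery genes, 3 were tested. With either ligand in Ahr+/+ BMMs 1 of these, Ahrr, was called at each time (with I3C 2.13 and 1.51), and none in Ahr-/- BMMs. The median of the 3 in Ahr+/+ BMMs was 0.75 at both times with BaP, and 0.71 at 3 h and 1.13 at 20 h with I3C. In Ahr-/- BMMs the medians lay between -0.32 and 0.35. The study also called Nqo1, another canonical AhR target, higher with both ligands at both times in Ahr+/+ BMMs. With hk S.E., Tiparp rose in all 4 comparisons (4.51, 4.29, 2.33 and 1.87) and Ahrr fell in 3, with 0.11 in Ahr+/+ BMMs at 20 h. Outside this list, the ligands changed 1 gene of the lists above, Vars with BaP in Ahr+/+ BMMs at 20 h (-0.47, adjusted p = 0.00196).

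Genes with the most similar pattern were found by Pearson's r across the 16 group means of log2 CPM, given as a description since the groups share mice and libraries. For Il4i1 they were Bcl3, Gmeb2 and Il15ra (r of 0.998 to 0.994). For Ido2 they were Notch1, Mab21l3 and Nub1 (0.981 to 0.977), and for Wars F10, Lrrc8c and Ms4a4c (0.994 to 0.993). For Haao they were Nav1, Itgb5 and Paqr4 (0.991 to 0.988), for Afmid Zdhhc1, 4732496C06Rik and Tef (0.977 to 0.972), and for Kmo Pcsk1, Frmd4b and Eps15 (0.962 to 0.960). For Kynu, whose levels are low, they were 1110059E24Rik, Gm4459 and Prmt9 (0.917 to 0.876). Among the enzymes themselves, Ido2 and Il4i1 had r of 0.916, Haao and Wars -0.914, Afmid and Il4i1 -0.885, and Kmo and Haao 0.763.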

How the data were processed

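RNA of 64 cultures of murine BMMs was sequenced as paired, strand-specific mRNA libraries. The counts are those deposited by the authors, who aligned trimmed reads to mm10 (GENCODE release M22) with HISAT2 2.1.0 and counted read pairs within exons per gene with HTSeq 0.9.1, using strand and dropping ambiguous pairs. The files start from these counts, so reads in repeats or in exons shared by genes on the same strand are missing from them. Lines that name no gene were left out, and HTSeq had placed 74.9% to 80.8% of pairs on genes. The authors also deposited a table of variance-stabilised log2 values, which was used as an alternative only. Gene positions came from GENCODE M21 on GRCm38 and matched 55394 of 55487 genes by identifier.

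All 64 libraries entered edgeR 4.0.16 (R 4.3.3), with 1 mean per group, scaling by trimmed means, the filterByExpr filter (minimum count 10), the quasi-likelihood test and Benjamini-Hochberg adjustment over the 14537 genes tested. The threshold of 0.01 is that of the study. Values are log2 fold changes ± SE with 48 residual degrees of freedom, and CPM are on scaled library sizes. Library totals set the precision, and counting intervals (95%, on summed counts) cover counting error only. Ido1, below the filter, was compared by exact permutation tests over 4 against 4 libraries. DESeq2 1.42.0, other size factors, no filter, fits of the compared groups only, the replicate block, the series of library identifiers (a label of unstated meaning) as a covariate, a threshold of 0.05 and leaving out each library were alternatives. Limma 3.58.1 on the log2 values, scaling by total counts, and fits with only replicates 1 and 2 or only 3 and 4 of every Ahr-/- group were added after seeing the data.

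Replicate numbers come from the labels and were taken to name the 4 mice per genotype, which the labels do not state. Same-numbered libraries with ligand and with DMSO deviated together from their group means in Ahr-/- BMMs (r of 0.252 to 0.643 over 16 pairs of libraries). In Ahr+/+ BMMs they did so less (0.0668 to 0.255, 10 of 16 pairs above 0.1). The 2 sets of Ahr-/- replicates enter these r values, which do not show that a number names a mouse. P-values then rest on the spread between these cultures. In the main fit all 16 groups share this spread, so the split of the Ahr-/- libraries enters tests in Ahr+/+ BMMs too. For Ido2 with BaP in Ahr+/+ BMMs at 20 h the SE was 0.33. With only replicates 1 and 2, or only 3 and 4, of the Ahr-/- BMMs it was 0.26 and 0.29. In simulated data for BaP in Ahr+/+ BMMs at 20 h, with 13880 genes, the test recovered 56 of 100 genes changed by 1 and 95 of 100 changed by 2 on the log2 scale, with 4 false calls. The simulation gave every gene the same spread, the same mean in all groups apart from the change, and independent libraries. It therefore does not give the share recovered for enzymes with few counts.

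The enzymes and gene lists were chosen with earlier results of these data known. The text names the 8 enzymes throughout, the called genes with the largest hk S.E. changes of each list, genes of the lists called with a ligand or in a difference between genotypes, and the 3 genes most like each enzyme.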

Additional observations from a re-analysis of the deposited data

Results flagged for a closer look

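Among 112 groups of 4 libraries, 8 held a library far from the other 3 by Dixon's test, where chance gives about 1 in 20 groups. For Kmo, replicate 1 of unactivated Ahr+/+ BMMs at 3 h was low (0.0487 CPM, the others 0.326 to 0.345), as was replicate 3 of activated Ahr+/+ BMMs at 3 h (0.762 CPM, the others 2.18 to 2.38). Also for Kmo at 20 h, replicate 4 of activated Ahr-/- BMMs was high after DMSO (0.0736 CPM, the others 0.0317 to 0.0375) and replicate 1 after BaP (0.156 CPM, the others 0 to 0.0265), both at a few counts. For Afmid, replicate 2 of activated Ahr+/+ BMMs at 3 h was low (0.170 CPM, the others 0.762 to 0.844). For Kynu, replicate 1 of BaP-exposed Ahr-/- BMMs at 3 h was high (0.679 CPM, the others 0.0983 to 0.161). For Ido2, replicate 4 of unactivated Ahr-/- BMMs at 20 h was at 0 CPM, with the others at 0.0618 to 0.0691. For Wars, replicate 2 of BaP-exposed Ahr-/- BMMs at 20 h was low (149 CPM, the others 170.4 to 173).

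The response to hk S.E. differed between 20 h and 3 h for 4 enzymes by the test of the difference in edgeR. The log2 differences in Ahr+/+ and Ahr-/- BMMs were -6.81 and -6.56 for Kmo, -3.79 and -5.52 for Il4i1, -2.84 and -3.18 for Haao, and 0.96 and 0.98 for Wars. For Kmo the direction of the response was opposite at the 2 times.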

How the results depend on the processing

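No called value was counted as changed in direction under any alternative run. A change of direction was counted only where the unadjusted p was below 0.32 in the main fit and in the alternative. The number of hk S.E. calls among the enzymes was 20 to 25 under the alternatives at the same threshold (23 as reported) and 27 at 0.05. Leaving out 1 library gave 21 to 24 of these, 0 to 2 genotype calls, 14 to 16 for time, 8 to 10 for the change of the hk S.E. response with time, and 0 for ligands and for the other interactions. Ligand calls went from 0 to 1 with the replicate block (Ido2, BaP, 20 h, Ahr+/+) and to 1 with limma on log2 values (the same gene at 3 h). With only replicates 1 and 2 of the Ahr-/- BMMs in the fit they were 1 (Ido2, BaP, 20 h, Ahr+/+), and with only replicates 3 and 4 they were 2 (the same and Il4i1, BaP, 3 h, Ahr+/+). Genotype calls went from 2 to 1 without a filter, to 1 under scaling by total counts, to 1 with the compared groups only, and to 0 with the identifier series in the fit. The difference of the hk S.E. response between genotypes went from 0 to 1 call with the compared groups only. The cause of these changes was not tested. Of the single values, 222 of 224 kept their side of the threshold with DESeq2, 223 with other size factors, 221 without a filter, 218 with the identifier series, 217 with limma, 216 under scaling by total counts, 211 and 217 with replicates 1 and 2 or 3 and 4 alone of the Ahr-/- BMMs, 174 of 183 with the compared groups only and 2213 of 2240 when leaving out a library. With the replicate block (pairing by mouse), 190 of 196 kept it and 6 gained a call. Besides those printed above, the last of these was Afmid between 3 h and 20 h in unactivated Ahr+/+ BMMs (0.93, adjusted p = 0.00262). Total-count scaling also moved the share of called genes that were higher at 20 h between genotypes in activated BMMs from 40.6% to 61.9%. Low counts of Ido1, Ido2, Kynu, Kmo and Haao limit what could be detected.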

Other observations

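In activated BMMs at 20 h, 2 of 6 other tested genes of tryptophan and kynurenine metabolism differed between the genotypes, and both were higher in Ahr-/- BMMs. These were Kyat3, a kynurenine aminotransferase, with a log2 difference of 0.96, and Gcdh, the glutaryl-CoA dehydrogenase, with 0.50. Of the 11 transport and sensing genes, 2 differed, and both were lower, Gpr35 (-0.90) and the amino acid transporter Slc7a8 (-0.45). The 2 synthetases that were higher in Ahr-/- BMMs were Farsb (0.34) and Tars (0.30). Among all tested genes, 12.5% were called in this comparison, 5.06% higher and 7.39% lower in Ahr-/- BMMs.

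In unactivated BMMs at 20 h, the tryptophan transporter Slc7a5 was lower in Ahr-/- BMMs (-0.76), as were the synthetases Vars (-0.53) and Cars (-0.40), while none of the 7 enzymes was called. The response to hk S.E. at 20 h was larger in Ahr-/- BMMs for Vars (0.55), Farsb (0.47) and Iars (0.46). It was smaller for Ahrr (-2.03). Ahrr also differed between BaP and I3C in Ahr+/+ BMMs at 3 h (1.23) and in its BaP response at 3 h between the genotypes (Ahr+/+ minus Ahr-/-, 3.69). Genes were chosen for this account after their values were seen, and the identifier series differ between the genotypes at 20 h.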
